A study of Homo sapiens with 24 samples.

Results

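The CXCL chemokine cluster on 4q13 holds 8 genes of 1 family within about 0.4 Mb of chromosome 4: CXCL8, CXCL6, CXCL1, PF4, PPBP, CXCL5, CXCL3 and CXCL2, in that order. H3K27ac, the acetylation of histone H3 on lysine 27 that marks active promoters and enhancers, was measured over this cluster by ChIP-seq in 2 human mammary epithelial lines. Regions of the cluster were taken from 6 deposited tables by gene name or by position. A region was a member if the authors' annotation placed it over or beside 1 of the 8 genes, or if it overlapped no gene and lay wholly inside the interval from 73.7 to 74.12 Mb of chromosome 4 (GRCh38). The 2 tables that compare knockdown with control held 39 member regions of 50284 in 10A and 26 of 44790 in DCIS. The 4 tables that compare a group with input held 11 of 15490 in 10A shCTRL, 35 of 28607 in 10A shANCO1, 10 of 15482 in DCIS shCTRL and 15 of 16692 in DCIS shANCO1. The cluster was selected on the change between shANCO1 and shCTRL in these same tables, so its calls are given as a description and not as a test of the cluster.

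The 24 libraries fall into 8 groups of 3. 10A is MCF10A, an immortalized and non-tumorigenic line, and DCIS is MCFDCIS, a line of the same lineage that forms ductal carcinoma in situ. By the study's account, DCIS came from xenografts of 10A cells that had been transfected with an oncogene. Each line carried a lentiviral hairpin against ANCO1, the product of ANKRD11, or a control hairpin against GFP (shANCO1 and shCTRL), and each was profiled after immunoprecipitation of H3K27ac and as input, which is sonicated chromatin without immunoprecipitation. The study used 1 shANCO1 hairpin line for its acetylation analysis, so a second hairpin was not analysed here, and all groups were infected, puromycin-selected and grown in the same medium with epidermal growth factor, hydrocortisone, insulin and cholera toxin. Nothing in the labels says that the 3 libraries of a group came from separate cultures.

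The tables give 1 log2 fold change and 1 false discovery rate (FDR) per region for whole groups, so values per library, their spread and their depth were unknown. The log2 fold change belongs to a representative window of the region, and a region counts here as up where its FDR was under 0.05 in the authors' deposited table with the direction up. The lines mostly matched their labelled cell type at the level of acetylation: of 8 mammary epithelial genes (KRT5, KRT14, KRT17, KRT8, KRT18, CDH1, TP63 and EPCAM), 6 had a region over input in each 10A group and 7 in each DCIS group, against 0 of 6 leukocyte genes in every group. The exceptions were KRT14, with no region over input in any group, and KRT17, with none in either 10A group. Between shANCO1 and shCTRL, 2 of those 6 had a region up in 10A (CSF1R in 6 of 8 regions and CD14 in 1 of 3) and 1 in DCIS (CSF1R in its 1 region). Acetylation does not measure the hairpin's effect on ANKRD11 RNA, so the knockdown itself was not checked here. At ANKRD11, 7 of 20 regions were up in 10A and 8 of 16 in DCIS. Beside these counts, and those of CSF1R and CD14, 43.6% of all regions were up in 10A and 23.6% in DCIS.

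The chemokines of this cluster are small secreted proteins that bind G protein-coupled receptors and guide leukocytes. CXCL8 (interleukin-8), CXCL6, CXCL1, CXCL5, CXCL3 and CXCL2 carry an ELR motif before the CXC cysteines and attract neutrophils through CXCR2, and CXCL8 and CXCL6 also through CXCR1. PPBP and PF4 are stored in platelet granules, and PF4 lacks the ELR motif. Epithelial cells switch on the ELR genes within hours of interleukin-1 or tumor necrosis factor, largely through NF-kB bound near each start, and enhancers between the genes serve several of them.

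To show the NF-kB element at the starts that hold it, the promoter sequence of each member in the RefSeq promoter table (GRCh38.p14) is given next. Of 8 members, 7 had an entry, and PF4 had none. Each run covers 150 to 51 bases before the RefSeq start on the gene's own strand, except CXCL3, whose run is 29 bases around the match. Capitals mark GGAATTTCC, an NF-kB core, and in CXCL8 also the AP-1 element TGACTCA.

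CXCL8: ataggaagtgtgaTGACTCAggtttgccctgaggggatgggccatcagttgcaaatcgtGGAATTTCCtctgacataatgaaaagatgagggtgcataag
CXCL6: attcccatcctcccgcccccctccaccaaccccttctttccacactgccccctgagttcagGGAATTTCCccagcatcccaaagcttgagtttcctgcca
CXCL1: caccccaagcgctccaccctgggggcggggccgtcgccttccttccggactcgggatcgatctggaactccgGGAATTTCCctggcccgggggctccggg
CXCL5: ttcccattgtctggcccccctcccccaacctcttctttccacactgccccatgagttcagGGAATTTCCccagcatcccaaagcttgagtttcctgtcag
CXCL3: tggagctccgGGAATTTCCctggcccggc
CXCL2: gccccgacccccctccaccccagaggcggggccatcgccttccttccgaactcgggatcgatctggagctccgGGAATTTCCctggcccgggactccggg
PPBP: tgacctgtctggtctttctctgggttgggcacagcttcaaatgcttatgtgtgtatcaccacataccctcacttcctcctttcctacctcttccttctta

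These runs lie on chromosome 4 of GRCh38.p14. CXCL8 spans 73740419 to 73740518, CXCL6 73836528 to 73836627 and CXCL1 73869243 to 73869342, all on the plus strand. PPBP spans 73988241 to 73988340, CXCL5 73998728 to 73998827, CXCL3 74038749 to 74038777 and CXCL2 74099246 to 74099345, all on the minus strand. The core occurred once in the 250 bases before the start of each ELR gene shown except PPBP, and its first base lay 91 bases before the start in CXCL8, 89 in CXCL6, 78 in CXCL1, 90 in CXCL5, 78 in CXCL3 and 77 in CXCL2. Searched on both strands, the core was present in 6 of the 7 members and in 0.413% of all 35116 promoters of the table. A looser NF-kB pattern, GGGRNNYYCC, was present in 5 of the 7 and in 9.96% of all promoters. In it R is A or G, Y is C or T and N is any base. The AP-1 element (TGACTCA or TGAGTCA) was present in CXCL8 alone of the members and in 4.20% of all promoters.

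The promoters fell into pairs of close copies. Over the 250 bases before the start, CXCL6 and CXCL5 were identical at 85.3% of aligned positions, CXCL1 and CXCL3 at 81.4%, CXCL3 and CXCL2 at 73.3% and CXCL1 and CXCL2 at 70.4%. CXCL8 shared at most 47.0% with any other member. Such copies can make short reads ambiguous, and stretches of 100 bases that recur exactly elsewhere in the locus were found in 2 of 39 member regions in 10A, with a largest share of 2.93% at the CXCL3 start. Fragment lengths and the handling of multiply aligned reads were not stated, so the values at the CXCL1, CXCL3 and CXCL2 starts carry that uncertainty.

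The first comparison asked where the cluster carried H3K27ac in each group. Acetylation covered 9.6 kb of member regions in 10A shCTRL and 40.4 kb in 10A shANCO1, and 14.5 kb in DCIS shCTRL and 20.1 kb in DCIS shANCO1. The shANCO1 length was thus 4.21 times the shCTRL length in 10A and 1.39 times in DCIS. Over all regions of the same tables the ratios were 2.79 and 1.08, which is the background against which the cluster's lengths stand. All member regions of these tables were up over input, as were 100% of all regions in 3 of the tables and, rounded, 100% in DCIS shCTRL (15480 of 15482), since the tables list little beyond enriched regions. A stretch missing from a table was therefore not listed as enriched, which does not show that it lacked acetylation. In whole cultures, more acetylated cells and more acetylation per cell cannot be told apart.

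**Figure D1:**
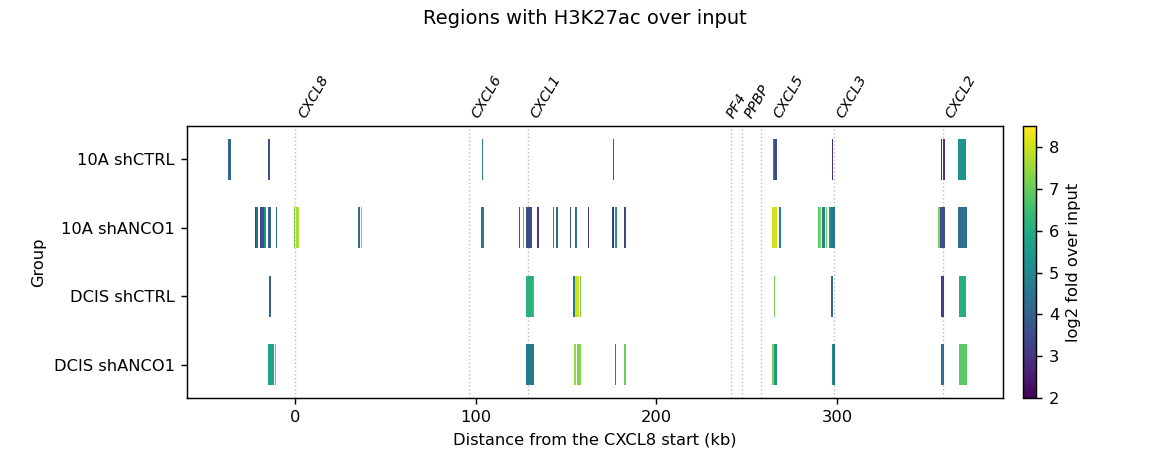
Member regions with H3K27ac over input in each of the 4 groups (rows), placed by distance from the CXCL8 start in kb, with colour giving the log2 fold change over input. Dotted lines mark the 8 gene starts, regions under 0.8 kb are drawn at 0.8 kb, and the 10A shANCO1 row holds 35 regions against 10 to 15 in the others.

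Acetylation present in control cells was mostly kept. Of the 10A shCTRL bases, 86.5% were also enriched in 10A shANCO1, and these made up 20.5% of the shANCO1 bases. In DCIS, 87.6% of the shCTRL bases were enriched in shANCO1 and made up 63.2% of its bases. When every region of the interval was counted, whatever gene it overlapped, 99.3% of 13800 shCTRL bases in 10A and 90.9% of 23200 in DCIS were shared with shANCO1. The 1.2 kb of 10A shCTRL 35.9 kb upstream of CXCL8 looked lost only because its larger counterparts in the other groups overlap a noncoding gene and were not members.

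5 stretches totalling 5000 bases were enriched in all 4 groups. The longest, 3800 bases from 74108301 to 74112100, lay 9105 bp upstream of CXCL2 and ended before MTHFD2L, a mitochondrial folate enzyme gene on the opposite strand. The authors' annotation gave the regions that hold it to MTHFD2L as the overlapped gene and named CXCL2 only as a neighbour. The other stretches were 300 bases over an exon of CXCL3, 300 over an exon of CXCL2, 400 at the CXCL2 start and 200 that lay 7324 bp upstream of CXCL5. CXCL3, CXCL2 and the upstream stretch of CXCL5 were therefore acetylated in both lines without the knockdown.

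**Figure D2:**
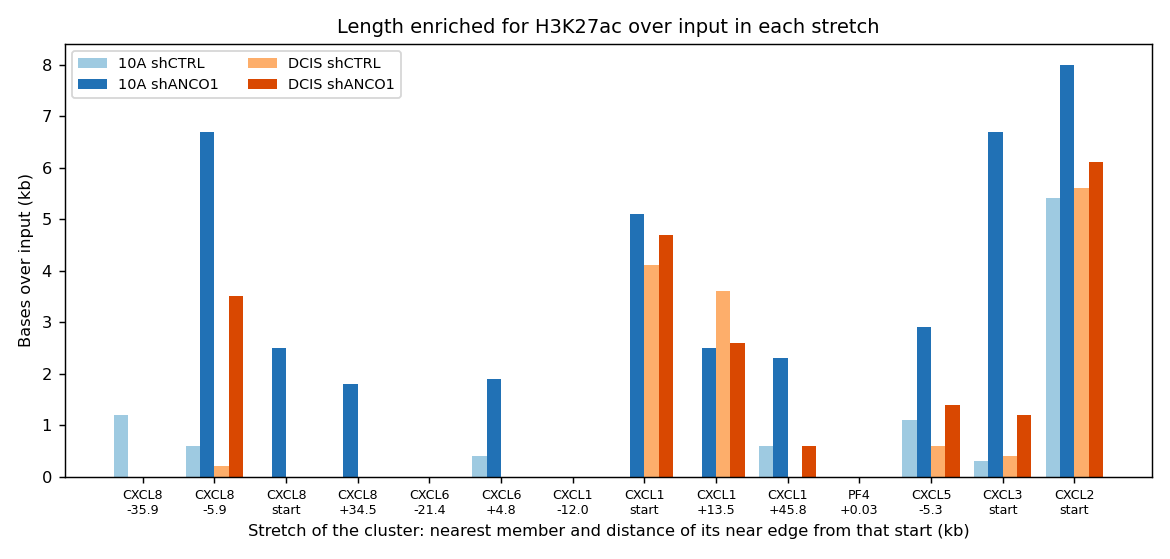
Length over input in kb (y axis) in each of 14 stretches of the cluster, made by joining member regions less than 5 kb apart and named by the nearest member and the distance of the near edge from its start in kb. Bars stand for the 4 groups, and the bar of 10A shANCO1 is the tallest in most stretches, with DCIS shCTRL tallest at 3.6 kb in the stretch 13.5 kb past the CXCL1 start.

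The starts of the 8 genes were marked differently. CXCL8 had regions over input in 10A shANCO1 and in no other group. The pair lay on chromosome 4 from 73739801 to 73740300, just upstream of the start, and from 73740701 to 73742700 over exon sequence, at log2 fold changes of 7.20 and 7.69 over input. The second ranked 187 among the 28607 regions of that table by log2 fold change.

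CXCL1 differed between the control groups. A region over its start was listed in DCIS shCTRL at a log2 fold change of 6.16 over input (73868101 to 73872000), in DCIS shANCO1 at 4.63 (73868001 to 73872700) and in 10A shANCO1 at 3.50 (73868101 to 73871700). In 10A shCTRL no region lay within 1 kb of the CXCL1 start. CXCL1, a melanoma growth-stimulating chemokine, was thus listed as acetylated in DCIS control cells and not in 10A control cells. How the log2 fold changes over input of the separate groups were normalized was not stated, so their order between groups was not read.

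At CXCL3, the start itself was inside a region in 10A shANCO1 (74037501 to 74039400, log2 fold change of 4.44 over input) and in DCIS shANCO1 (74038801 to 74039100, 4.13). The latter held 2 windows. Another DCIS shANCO1 region, of 8 windows, lay 307 bp downstream (74037601 to 74038500, 5.29). The RefSeq start of CXCL3, at 74038689, lay between these DCIS shANCO1 regions. In both shCTRL groups the nearest region lay 707 bp downstream, at log2 fold changes of 2.72 in 10A and 4.21 in DCIS. The CXCL2 start was covered in 10A shANCO1 at 3.57, DCIS shCTRL at 3.19 and DCIS shANCO1 at 4.44, and in 10A shCTRL by flanking regions at 2.76 and 2.93. CXCL3 and CXCL2, close copies of CXCL1, were hence listed as acetylated near the start in all 4 groups.

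The starts of CXCL6, PF4, PPBP and CXCL5 lay under no region of any table. For CXCL6 the acetylated stretch lay inside the gene as GENCODE draws it, 6561 bp downstream of the start over an intron in 10A shANCO1 (4.61, 73843201 to 73845100), with 400 bases of it listed in 10A shCTRL and none in DCIS. For CXCL5 it lay upstream, and the 10A shANCO1 region from 74004501 to 74007200, 5824 bp before the start, reached a log2 fold change of 8.06 over input. That was rank 72 of 28607 and the highest value of any member region in that table. The platelet genes PF4 and PPBP had no region over input in any group.

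**Figure D3:**
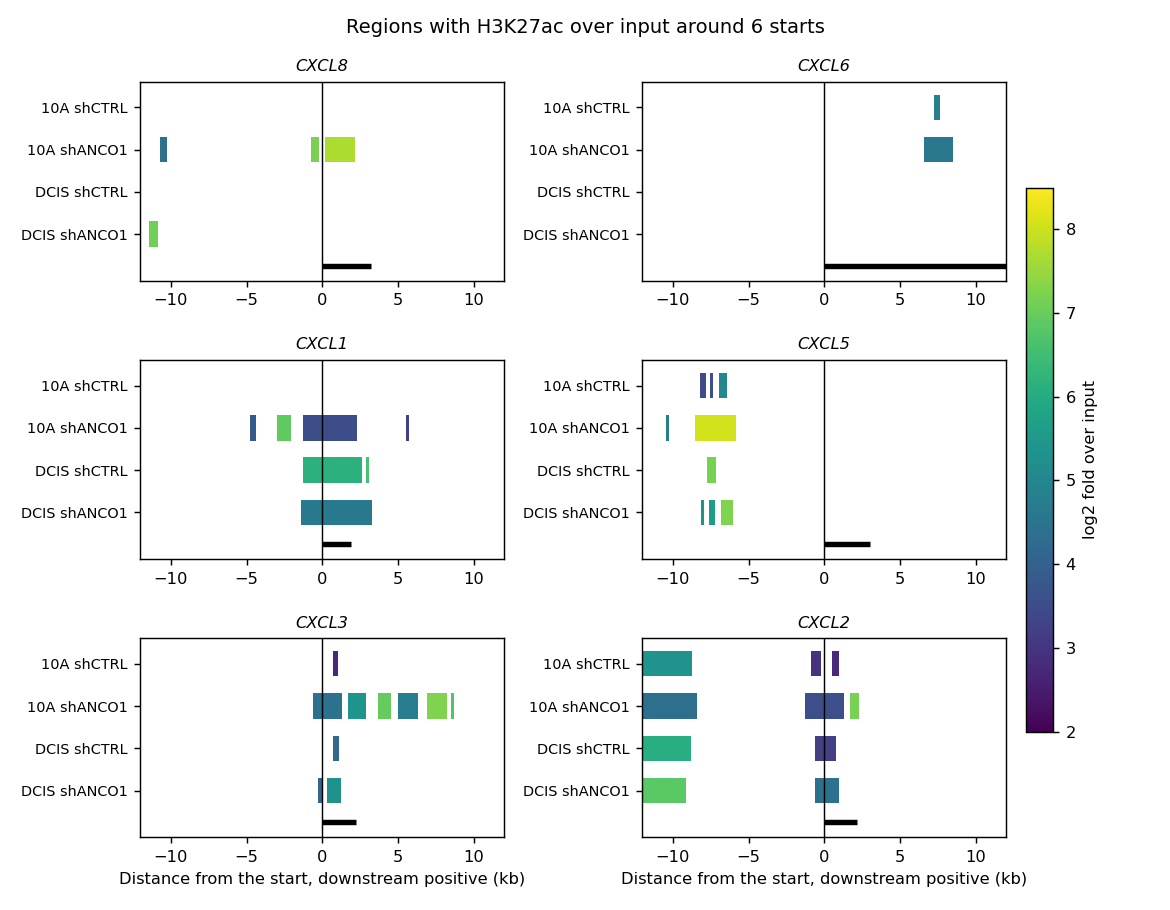
Member regions over input within 12 kb of the starts of CXCL8, CXCL6, CXCL1, CXCL5, CXCL3 and CXCL2 in the 4 groups, with the distance from the start in kb and downstream to the right. Colour is the log2 fold change over input and the black bar is the gene. The CXCL8 start is flanked by regions in 10A shANCO1 alone, while CXCL1 has a region over its start in 3 of 4 groups.

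The second comparison set shANCO1 against shCTRL directly in 10A. Of 39 member regions, 31 were up, 0 were down and 8 were not called. Across all 50284 regions of that table, 43.6% were up and 0.225% were down, so most of the table leans the same way. The log2 fold changes of the members ran from -0.07 to 2.73 with a median of 1.29, beside a median of 0.76 over all regions, and 38 of 39 were positive against 91.8% of all regions. Normalization, which was not stated, sets the zero of this scale, and 33 of the 39 members lay above the table's median. 6 members were up by at least 1 above that median, a level met by 1.14% of all regions. By windows, 84.1% of the members' tested windows were up against 36.6% over all regions.

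The largest gain of the cluster in 10A lay past the end of CXCL3. The region from 74030501 to 74033800, 5007 bp downstream of the CXCL3 start and outside protein-coding genes, had a log2 fold change of 2.73 (FDR = 2.3e-07 in the authors' deposited table, 31 of 31 windows up). It ranked 4 of 50284 by log2 fold change. The adjoining region from 74034101 to 74036900, which reached an exon of CXCL3, had 2.05 (FDR = 9.1e-05). The region over the CXCL3 start gained less, at 1.00 (FDR = 3.2e-04), and stood 0.24 above the table's median.

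The high region held 1 AP-1 element and no NF-kB core. The element is shown with 20 bases on each side, on the plus strand from 74033013 to 74033059 of GRCh38, with the element in capitals.

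CXCL3 downstream region: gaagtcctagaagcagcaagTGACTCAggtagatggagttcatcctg

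The region upstream of CXCL5 held the opposite pair, 1 NF-kB core and no AP-1 element. It is shown in the same way, from 74005558 to 74005606.

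CXCL5 upstream region: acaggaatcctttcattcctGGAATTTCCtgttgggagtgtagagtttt

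In the central 500 bases of regions, the NF-kB core was present in 1 of 39 members in 10A against 0.801% of all regions, and the AP-1 element in 5 of 39 against 18.3%. In DCIS the core was present in 0 of 26 against 0.761%, and AP-1 in 4 of 26 against 15.4%. The looser NF-kB pattern was present in 3 of 39 against 13.3% in 10A and in 3 of 26 against 14.8% in DCIS. In this central window the members' regions were thus near the table's own shares for AP-1, and the matches are a description of the sequence. The 2 elements shown above lie outside that window. Over their whole length, the 10A regions over the starts of CXCL8, CXCL1, CXCL3 and CXCL2 held 1 core each. So did the DCIS regions over the starts of CXCL1, CXCL3 and CXCL2. Whole regions differ in width, and their matches were not set beside those of all regions.

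CXCL1 was up in all 5 of its 10A regions. They ran from 0.91 to 1.59, and the region over the start (73867901 to 73870900) had a log2 fold change of 1.34, an FDR of 1.2e-07 and 28 of 29 windows up. This was the lowest FDR of any member region in 10A. The regions lay from 4093 bp upstream to 5308 bp downstream of the start, so the gain covered both flanks of the gene.

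CXCL8 was up in both of its 10A regions. The region over the start, 73739701 to 73742800, had a log2 fold change of 1.36 (FDR = 3.3e-04, 27 of 28 windows up), and the region 9619 bp upstream had 1.45 (FDR = 0.0033). Further upstream, 2 regions that name no gene were also up, from 73717601 to 73722600 at 1.87 (FDR = 1.3e-05) and from 73722501 to 73727400 at 1.01 (FDR = 1.5e-04). All 3 of the upstream regions, which lie in a stretch of 17 kb before CXCL8, were thus up in 10A.

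The remaining members gave fewer calls. CXCL5 had 1 region, 74004001 to 74007800, at 1.29 (FDR = 7.1e-06, 36 of 37 windows up). CXCL6 was up in 2 of 3 regions, at 1.39 in the GENCODE intron and 1.54 beyond the gene, in a region annotated over the neighbouring gene PF4V1. CXCL2 was up in 2 of 4, at 0.87 over the start (FDR = 0.0026) and 0.93 in the region annotated over MTHFD2L (FDR = 3.6e-06). Its median over 4 regions, 0.80, was the lowest of the ELR genes with a region of their own, whose medians ran up to 1.40. The stretch around CXCL2 also held the most acetylation in 10A shCTRL, at 5.4 kb, of which 4200 bases lay in the region annotated over MTHFD2L.

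PF4 and PPBP shared their only region, a single window from 73981801 to 73982000 over an exon of PF4. Its log2 fold change in 10A was 0.73, below the table's median, and it was not called (FDR = 0.094). In DCIS the platelet genes had no region at all.

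**Figure D4:**
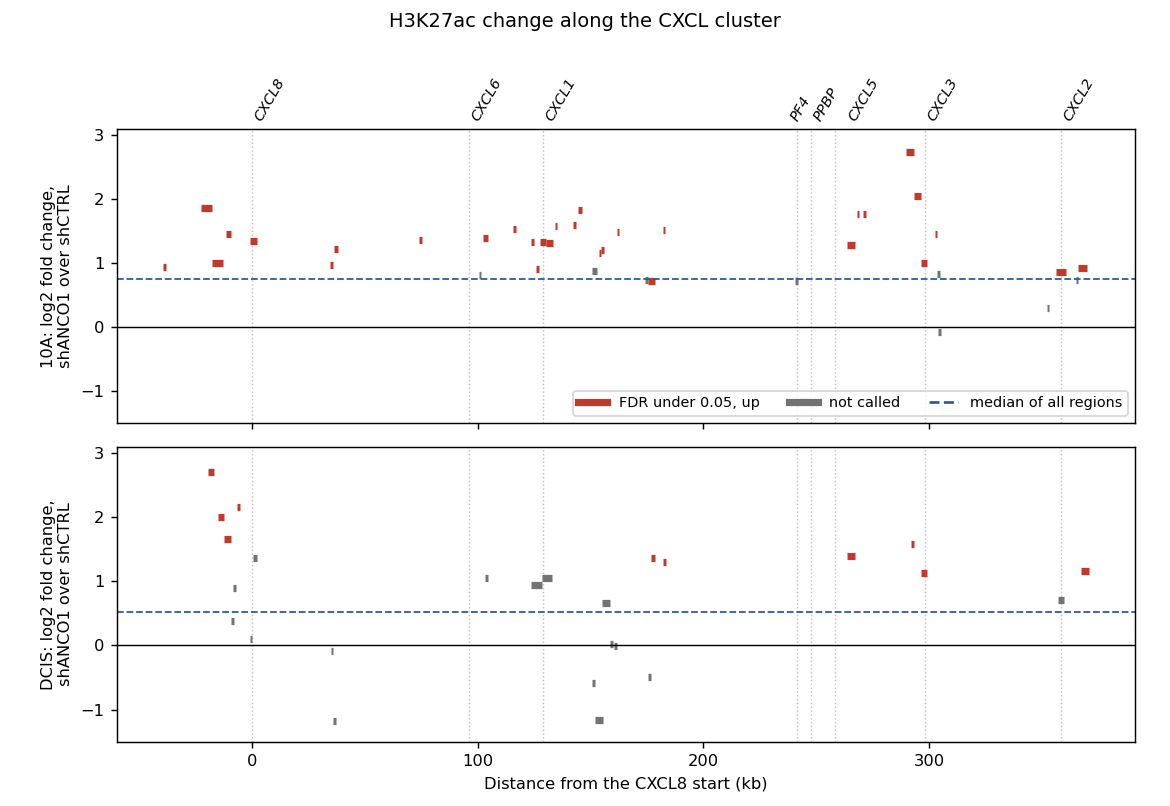
Log2 fold change of H3K27ac, shANCO1 over shCTRL, for each member region (y axis) by distance from the CXCL8 start in kb, in 10A (top, 39 regions) and DCIS (bottom, 26 regions). Red bars are up at FDR under 0.05 and grey bars are not called, the dashed line is the median of all regions of that line (0.76 and 0.52), and regions under 1.2 kb are drawn at 1.2 kb. The 10A bars lie mostly above the line along the whole cluster, while DCIS has red bars before CXCL8, between CXCL1 and PF4 and from CXCL5 onward.

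The same comparison in DCIS gave 10 regions up, 0 down and 16 not called, of 26. Across all 44790 regions tested in DCIS, 23.6% were up and 4.86% were down. The members ran from -1.19 to 2.71 with a median of 1.00, beside 0.52 over all regions, and 20 of 26 were positive against 66.9% of all regions. 5 members were up by at least 1 above the median, against 16.3% of all regions, so the members' share of 5 in 26 was near the background. By windows, 20.5% of the members' windows were up against 17.5% over all regions.

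In DCIS the largest gains of the cluster lay before CXCL8, in a stretch picked after its values were seen, as 1 of 14. Of 6 regions in the 17 kb stretch, 4 were up: 73720901 to 73723600 at 2.71 (FDR = 7.3e-05), 73725201 to 73728100 at 2.005 (FDR = 6.4e-08), 73728001 to 73730900 at 1.67 (FDR = 0.0012) and 73734201 to 73734600 at 2.17 (FDR = 6.3e-04). By log2 fold change these 4 stood between percentiles 86.6 and 97.4 of all DCIS regions, and they were 4 of the 10 up in the cluster. The length over input in the stretch was 0.2 kb in DCIS shCTRL and 3.5 kb in DCIS shANCO1. At the gene itself the call was not made: the region over CXCL8 exon sequence, 73740801 to 73742400, had 1.36 with an FDR of 0.178 and 0 of 12 windows up, and the single window 519 bp upstream of the start had 0.099 with an FDR of 0.954. No region over input was listed at the start in either DCIS group. The stretch before CXCL8 and the CXCL8 start therefore differed in their calls in DCIS, while both were up in 10A.

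CXCL1 was not called in DCIS. The region over its start had a log2 fold change of 1.05 with an FDR of 0.235 and 0 of 46 windows up, and the region before it had 0.95 with an FDR of 0.487. The fold change at the start was 1.34 in 10A, and whether the lines differ there was not tested, since the tables hold no values per library. Neither result shows that CXCL1 was unaltered in DCIS.

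The other starts in DCIS were divided. CXCL3 was up in both regions, at 1.13 over the start (FDR = 0.0056) and 1.59 in a single window 5507 bp downstream (FDR = 0.010), inside the stretch of the largest 10A gain. CXCL5 was up in its 1 region, 74004301 to 74007700, at 1.40 (FDR = 0.016). CXCL2 was not called over its start (0.71, FDR = 0.191) and was up in the region annotated over MTHFD2L (1.16, FDR = 0.022, 1 of 35 windows up). CXCL6 had 1.06 in the intron and was not called (FDR = 0.161).

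Where both lines had a region, 21 of the 39 10A regions overlapped a DCIS region. 9 were up in both lines, 11 were up in 10A and not called in DCIS, 1 was called in neither and 0 were up in DCIS alone. The regions up in both were 29.0% of the 31 up in 10A, and the DCIS regions they overlapped were 90% of the 10 up in DCIS. Over the whole tables, 22.8% of the 21913 regions up in 10A overlapped a region up in DCIS, and 49.5% of the 10567 up in DCIS overlapped one up in 10A. No test was made of the cluster's shares against these. Those up in both lay before CXCL8 (3), between CXCL1 and PF4 (2), upstream of CXCL5 (1), at and past CXCL3 (2) and before MTHFD2L (1).

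**Figure D5:**
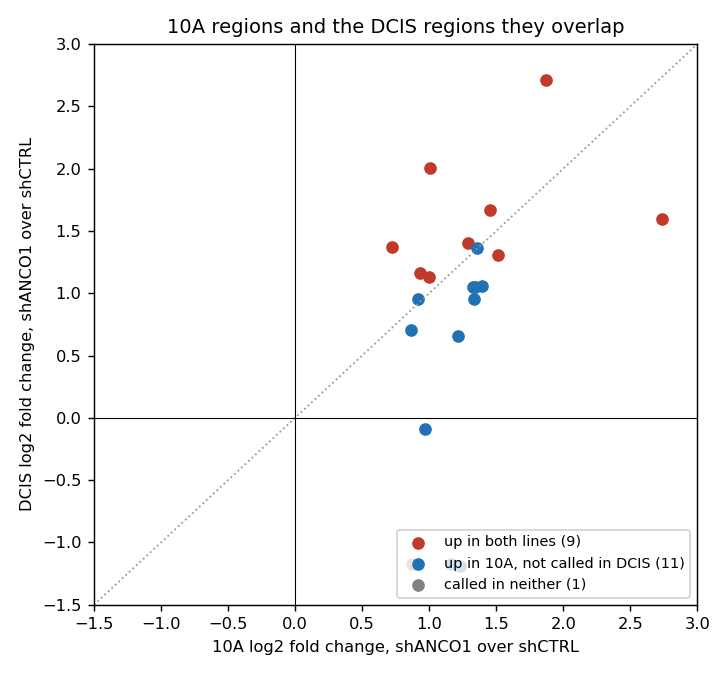
Log2 fold change of shANCO1 over shCTRL in 10A (x axis) and in the DCIS region sharing the most bases (y axis) for the 21 10A member regions that overlap a DCIS member region. Colour gives the calls at FDR under 0.05, some 10A regions share a DCIS region, and the dotted line marks equal values. 3 regions up in 10A lie below 0 in DCIS, none of them called there.

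The stretch from 73882901 to 73903000, past CXCL1, showed the contrast between the lines most plainly. In 10A it held 6 regions, 5 of them up, from 0.87 to 1.83, with 0 kb over input in shCTRL and 2.5 kb in shANCO1. In DCIS it held 5 regions, 0 of them up, from -1.17 to 0.66, with 3.6 kb over input in shCTRL and 2.6 kb in shANCO1. The DCIS shCTRL region from 73895501 to 73897500 had a log2 fold change of 8.02 over input and ranked 140 of 15482. This stretch was picked after its values were seen, as 1 of 14, and the difference between the lines was not tested.

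A second such stretch lay 34.5 kb past the CXCL8 start. Its 2 regions were up in 10A at 0.97 and 1.23, with 1.8 kb over input in shANCO1 and 0 kb in shCTRL. In DCIS they had -0.09 and -1.19 and were not called (FDR = 0.988 and 0.190), and neither DCIS group had a region over input there.

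Just outside the rule lay regions that belong to neighbouring genes. Before CXCL8 and UMLILO, a noncoding gene known to bring the chemokine promoters into contact with a histone methyltransferase complex, 2 regions that the authors' annotation gives to LOC105377272 were up in 10A at 1.40 (FDR = 4.8e-08) and 0.92 (FDR = 9.2e-06). In DCIS the counterparts had 1.14 (FDR = 0.171) and 1.31 (FDR = 0.041), and in DCIS shCTRL the region from 73702601 to 73706000 had 8.41 over input. A DCIS region that began at 73697401 touched the lower edge of the interval by 1 base, was not counted, and had 0.62 with an FDR of 0.551.

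Genes that act with the chemokines were read from lists drawn up with earlier results known. Of the receptors CXCR1, CXCR2 and ACKR1, CXCR1 had 1 region in each line, not called in either, and the others had none. Of 16 genes of NF-kB and interleukin-1 signalling, 15 had a region in 10A and 13 of these had a region up. In 10A 36 of 59 regions were up, with a median log2 fold change of 0.93. In DCIS 13 of the 16 had a region and 5 of these had a region up. There 7 of 36 regions were up and 1 was down, with a median of 0.44. Among all genes named in the tables, 74.3% had a region up in 10A and 32.2% in DCIS. Among all regions, 43.6% were up in 10A and 23.6% in DCIS.

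Within that list, TNFAIP3 and NFKBIA, which restrain NF-kB, had regions at 1.21 (FDR = 3.1e-05) and 1.36 (FDR = 8.5e-04) in 10A. In DCIS, TNFAIP3 was up in 1 of 2 regions, at 1.37 (FDR = 0.018), and NFKBIA had 1.20 and was not called (FDR = 0.051). IL1A, which encodes interleukin-1 alpha, was up in 5 of 5 regions in 10A, with 1.41 at its lowest FDR (3.9e-07), and in 3 of 4 in DCIS, where its region at 4.64 had the lowest FDR of the list (1.0e-13). IL1B was up in 5 of 6 regions in 10A and had no region in DCIS. IL1R1 was up in 6 of 11 in 10A and in 0 of 3 in DCIS. NFKBIZ, a nuclear co-factor of NF-kB, was up in 2 of 3 regions in 10A and 1 of 3 in DCIS. Its lowest-FDR regions had 1.16 in 10A (FDR = 1.1e-04) and 2.17 in DCIS (FDR = 3.8e-04). CEBPB, a transcription factor that acts with NF-kB at chemokine promoters, was up at 0.93 in 10A (FDR = 5.1e-05) and down by 1.46 in DCIS (FDR = 0.011, log2 fold change of -1.46). CEBPB was the gene of the list with a call in opposite directions in the lines.

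Other chemokines were read from the same lists. Of 8 CXC genes outside the cluster, 4 had a region in 10A and 1 of these had a region up (CXCL17, 0.72, FDR = 0.040). In DCIS 5 had a region and 3 of these had a region up: CXCL9 at 1.47, CXCL13 at 1.29 and CXCL16 at 1.41. These counts stand beside the shares of all named genes given above. CCL20, which attracts T cells and dendritic cells to epithelia, was up in 4 of 5 regions in 10A, with 1.31 at its lowest FDR (4.3e-05). It was up in 0 of 6 in DCIS, and the shares of all regions were 43.6% in 10A and 23.6% in DCIS. CCL28 was not called in either line, and CCL2 and CCL5 had no region.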

How the data were processed

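Human 10A and DCIS cells were profiled by H3K27ac ChIP-seq, with input, in 24 libraries. The methods name BWA and Rsubread for alignment to GRCh38, samtools for removing duplicates, and csaw for the test of windows over the 3 libraries per group. Normalization, the window filter, merging of windows, the prior count and the inputs used were not given in the sources used here. The deposited log2 fold changes belong to 1 representative window per region, and the authors' deposited p-values and FDR cover every region of their table. Each region also has the number of its windows tested, up and down, in place of reads, so depth per library was unknown.

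The fold changes, FDR and directions are those of the authors' deposited tables, and no further test was run, because no value per library was at hand. The members, the lists and the rule for named genes were chosen with earlier results of these data known. The rule names all 8 members with the region of lowest FDR, of largest change and nearest the start, 10 neighbouring genes and 4 gene lists. The epithelial and leukocyte lists were added after the data were seen. Lengths are unions of regions. Starts are those of GENCODE release 44, and promoter sequences those of RefSeq. Identity is over a global alignment with Biopython 1.88, and tables were handled with pandas 2.3.3. Alternatives changed the FDR, fold, direction, window and membership rules. The counting of lengths and the motif search were tested on simulated data.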

Additional observations from a re-analysis of the deposited data

How the results depend on the processing

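No paired analysis was possible because the tables hold 1 value per region and none per library, and for the same reason no replicate could be left out. Of 39 alternatives, 29 left a count or a length within 1.5 times its value, and no alternative gave a region down. In 10A, 31 of 39 regions were up, and 6 of 39 by at least 1 from the line's median. The count was 16 of 22 when only regions naming a member were counted, and 11 of 13 when only the overlapped gene counted. In DCIS, 10 of 26 were up, 5 at FDR under 0.01 and 5 by at least 1 from the median. The count there was 6 of 14 naming a member and 1 of 7 by the overlapped gene. Over all regions, 43.6% were up in 10A and 23.6% in DCIS. Lengths over input became 26900 bases in 10A shANCO1 with regions naming a member, and 23200 in DCIS shCTRL with every region of the interval. Regions up in both lines fell from 9 to 4 at FDR under 0.01, an alternative chosen after seeing the data, as were centring and regions touching the interval. Centring on the line's median turned 1 of 31 called 10A regions (73915801 to 73919100, to -0.042) and 0 of 10 in DCIS. Causes were not tested. Unknown depth limits every region that is absent from a table.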

Other observations

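The growth factor genes that follow the cluster on chromosome 4 were described beside it. EPGN, EREG, AREG and BTC encode ligands of the epidermal growth factor receptor. In 10A, AREG was up in 3 of 4 regions, with a log2 fold change of 1.56 at its lowest FDR (3.2e-06 in the authors' deposited table), EREG in 4 of 8, EPGN in 3 of 5 and BTC in 1 of 2. In DCIS, AREG was up in 1 of 2 regions, at 1.40 (FDR = 0.0083), and the other three had 0 regions up. On the other side, RASSF6, a regulator of apoptosis, had 0 of 4 regions up in 10A and 3 of 6 in DCIS, with 2.02 at its lowest FDR (9.7e-04). Over the 10 neighbours, 27 of 43 regions were up in 10A and 6 of 25 in DCIS, beside 43.6% and 23.6% of all regions, so the DCIS share of 24% was at the background, and 0 were down in either line. Those counts include regions of PF4V1 and MTHFD2L that also name a member.

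Genes with the profile most like each of 6 members were sought among 6154 genes (PF4 and PPBP, with no region in DCIS, were not compared), over 6 values per gene: the median change in each line and the length over input in each of 4 groups. A gene had to have at least 3 regions in the knockdown comparison of each line. No member met this in both lines, so none could be found as the neighbour of another. CXCL8 had a length over input in 10A shANCO1 alone, as did the genes nearest to it. The nearest to CXCL8 were ENTPD4, MED14 and CHST7, at distances of 0.94, 0.96 and 0.99 in units of the spread over genes. The nearest to CXCL2 were SCHIP1, IQCJ-SCHIP1 and ADAM9, at 0.33, 0.35 and 0.37, and SCHIP1 and IQCJ-SCHIP1 are overlapping genes. CXCL1 had the most distant neighbours, with LOC101927789 at 1.20, LINC00324 at 1.28 and RAD51D at 1.43. The nearest to CXCL6 was LOC105378502 at 0.83, to CXCL5 UAP1 at 0.67 and to CXCL3 ATXN2 at 0.77.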
